A study of Mus musculus with 20 samples.

Results

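The Kmt2 and Dot1l methyltransferase genes were described through the open chromatin in and around them in blood stem and progenitor cells. The 9 genes were Kmt2a, Kmt2b, Kmt2c, Kmt2d, Kmt2e, Setd1a, Setd1b, Men1 and Dot1l, chosen by name and not by a measured value. A peak belonged to one of them when its centre lay inside the gene or, failing that, when the gene had the nearest boundary among 21900 protein-coding genes. The shortest gene was taken where several overlapped. Of 125343 ATAC-seq peaks, 55 belonged to the 9 genes. Kmt2e had 12 of them, Kmt2c 10, Kmt2a 8, Kmt2d, Setd1b and Dot1l 6 each, Kmt2b and Men1 3 each, and Setd1a 1. Peaks are numbered within a gene from the lowest coordinate upward, and the gene of a peak is its neighbour, not a shown target.

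ATAC-seq marks open chromatin by the sites where a transposase inserts adapters. The cells were LSK cells (Lin-cKit+Sca1+), a sorted bone marrow fraction of C57Bl/6J mice that holds stem cells and early progenitors. The mutant genotypes were Idh2LSL-R172K/+;Vav-Cre (Idh2 R172K), Tet2-/- (Tet2 knockout), Idh1LSL-R132H/+;Vav-Cre (Idh1 R132H) and Idh2LSL-R140Q/+;Vav-Cre (Idh2 R140Q), set against +/+;Vav-Cre (WT). Each genotype had 4 libraries, each a pool of 2 mice aged 3 to 4 months. The Vav-Cre recombinase is active in blood cells and was carried by WT and by the 3 Idh genotypes, whereas the Tet2-/- label names no Cre. The Idh changes make the enzymes form 2-hydroxyglutarate, an inhibitor of dioxygenases such as Tet2, which oxidizes 5-methylcytosine, and of several histone demethylases.

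The Kmt2 and Setd1 enzymes methylate lysine 4 of histone H3, a mark of promoters and enhancers, and work in complexes built on one shared core. Kmt2a is needed for blood stem cells and holds the Hox genes active together with menin, the product of Men1, and its gene is broken in a class of leukaemias. Dot1l methylates a lysine in the body of histone H3 along transcribed genes, and Kmt2a-fusion leukaemias depend on it.

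RefSeq promoter sequences (GRCm38.p6, the assembly of mm10) were matched by symbol for 6 of the 9 genes: Kmt2a, Kmt2c, Kmt2d, Setd1a, Men1 and Dot1l. The 250 bases before the start site are shown for Men1 and Dot1l, whose promoter peaks were raised in Idh2 R172K, and for Kmt2a and Setd1a, whose promoter peaks were not called. The windows are chr19:6334729-6334978 on the plus strand for Men1, chr10:80754953-80755202 on the plus strand for Dot1l, chr9:44881290-44881539 on the minus strand for Kmt2a and chr7:127777139-127777388 on the plus strand for Setd1a. Each lay wholly under its promoter peak. The start site here is that of the promoter entry. The Dot1l and Kmt2a windows reach into the gene spans used below, which begin at chr10:80755101 and end at chr9:44881352. Capitals mark matches, on either strand, to 6 letter strings described after the sequences.
Men1: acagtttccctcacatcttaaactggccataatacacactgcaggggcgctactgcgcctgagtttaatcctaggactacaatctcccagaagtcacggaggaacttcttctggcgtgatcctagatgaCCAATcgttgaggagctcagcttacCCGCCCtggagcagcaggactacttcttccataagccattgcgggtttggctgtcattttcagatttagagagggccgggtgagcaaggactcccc
Dot1l: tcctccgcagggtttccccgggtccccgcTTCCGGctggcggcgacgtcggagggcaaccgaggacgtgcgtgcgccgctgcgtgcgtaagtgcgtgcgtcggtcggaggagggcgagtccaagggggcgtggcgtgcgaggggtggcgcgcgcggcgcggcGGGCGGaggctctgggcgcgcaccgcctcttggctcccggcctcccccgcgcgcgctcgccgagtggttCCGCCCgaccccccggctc
Kmt2a: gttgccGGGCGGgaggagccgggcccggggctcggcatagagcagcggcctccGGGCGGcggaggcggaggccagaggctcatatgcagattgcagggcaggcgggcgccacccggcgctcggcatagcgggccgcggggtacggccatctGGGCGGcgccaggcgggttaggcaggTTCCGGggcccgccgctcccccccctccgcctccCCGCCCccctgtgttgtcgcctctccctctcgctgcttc
Setd1a: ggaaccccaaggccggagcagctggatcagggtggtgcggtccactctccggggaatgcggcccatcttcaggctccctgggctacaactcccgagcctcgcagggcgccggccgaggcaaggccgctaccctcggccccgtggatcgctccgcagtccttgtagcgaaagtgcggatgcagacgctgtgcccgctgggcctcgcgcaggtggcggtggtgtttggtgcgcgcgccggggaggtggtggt

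These windows differed in base content. Men1 held 8 CpG dinucleotides with 52% G and C, whereas Dot1l held 44 CpG with 78.4%, Kmt2a 29 CpG with 76.8% and Setd1a 25 CpG with 70.4%. Kmt2c and Kmt2d held 48 and 26 CpG, against a median of 6 over 32851 RefSeq promoter windows of the same length. The strings searched were CCGGAA (ETS factors), the palindromic NRF1 string, CCAAT (the CCAAT box), GGGCGG (the GC box), TGTGGT (RUNX factors) and CACGTG (the E-box). No string holds another, and they occur in 12%, 4.98%, 33.8%, 32.7%, 14% and 6.02% of all windows in that order. Men1 matched the CCAAT box once and the GC box once. Dot1l matched ETS once and the GC box at 2 places, and Kmt2a matched ETS once and the GC box at 4. Kmt2c matched the GC box at 12 places and Kmt2d at 4, and Setd1a matched none of the strings. RefSeq lists 3 promoter entries for Men1 and 1 for each of the others shown. The Men1 window printed is the one with the lowest coordinate, and the other two held 10 and 9 CpG.

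Libraries held 10.5 to 27.89 M counts in peaks. Levels below are counts per M counts (CPM), with library sizes scaled by TMM, as the mean ± SD of the 4 libraries of a genotype (n = 4). The peaks at Xist, the RNA of the silenced X chromosome, split the libraries into 10 at 34.51 to 42.91 CPM and 10 at 4.554 to 6.27 CPM. The high set held replicates 3 and 4 of Tet2 knockout and, of each Idh genotype and WT, replicates 2 and 4. Peaks inside the LSK marker genes Kit, Ly6a, Flt3 and Procr (4 of 4 with a peak) summed to 284 to 305 CPM in Idh2 R172K, 309 to 376 in Tet2 knockout, 312 to 358 in Idh1 R132H, 327 to 363 in Idh2 R140Q and 320 to 345 in WT.

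All 55 peaks passed the filter on low counts. The promoter-class peak of highest mean CPM over the 20 libraries is called the promoter peak of its gene. It held most of the signal at several genes: 85% of the WT signal for Kmt2a, 97.7% for Kmt2b, 79.8% for Kmt2c, 59.5% for Kmt2e and 59% for Kmt2d. Setd1a had no other peak. Dot1l had 30.6% of its WT signal in its promoter peak, at 52.7 ± 2.65 CPM. Dot1l peak 1, outside the gene, had a similar level in WT, at 54.3 ± 4.28 CPM. Setd1b, with 4.64% in its promoter peak, had stronger peaks elsewhere. The Setd1b promoter peak was only 182 bp wide, and the wide peak over the annotated Setd1b start (chr5:123140870-123142539) went to the neighbouring Rhof gene by the assignment rule.

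Per kilobase of peak, the Dot1l and Kmt2e promoters were the most open in WT, at 89.3 ± 4.5 and 84.5 ± 6.26 CPM per kb, with overlapping ranges over libraries. A second tier followed with Kmt2a at 46.2 ± 5.98, Men1 at 44.4 ± 1.48, Kmt2b at 43.3 ± 0.764, Kmt2c at 42.5 ± 4.04 and Setd1a at 37.7 ± 2.53 CPM per kb, each overlapping the next. Kmt2d at 30.3 ± 2.58 and Setd1b at 15.9 ± 3.47 CPM per kb came last, both clear of their neighbours in the order. The top pair and the last 3 places were the same in all 5 genotypes. In Idh2 R172K, as in Tet2 knockout, the Men1 promoter took the place after Dot1l and Kmt2e, with ranges that overlapped the next promoter. It had 53.4 ± 4.41 CPM per kb in Idh2 R172K, and Kmt2b stood next at 49.7 ± 1.95, ahead of Kmt2a at 45.7 ± 1.32.

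**Figure D1:**
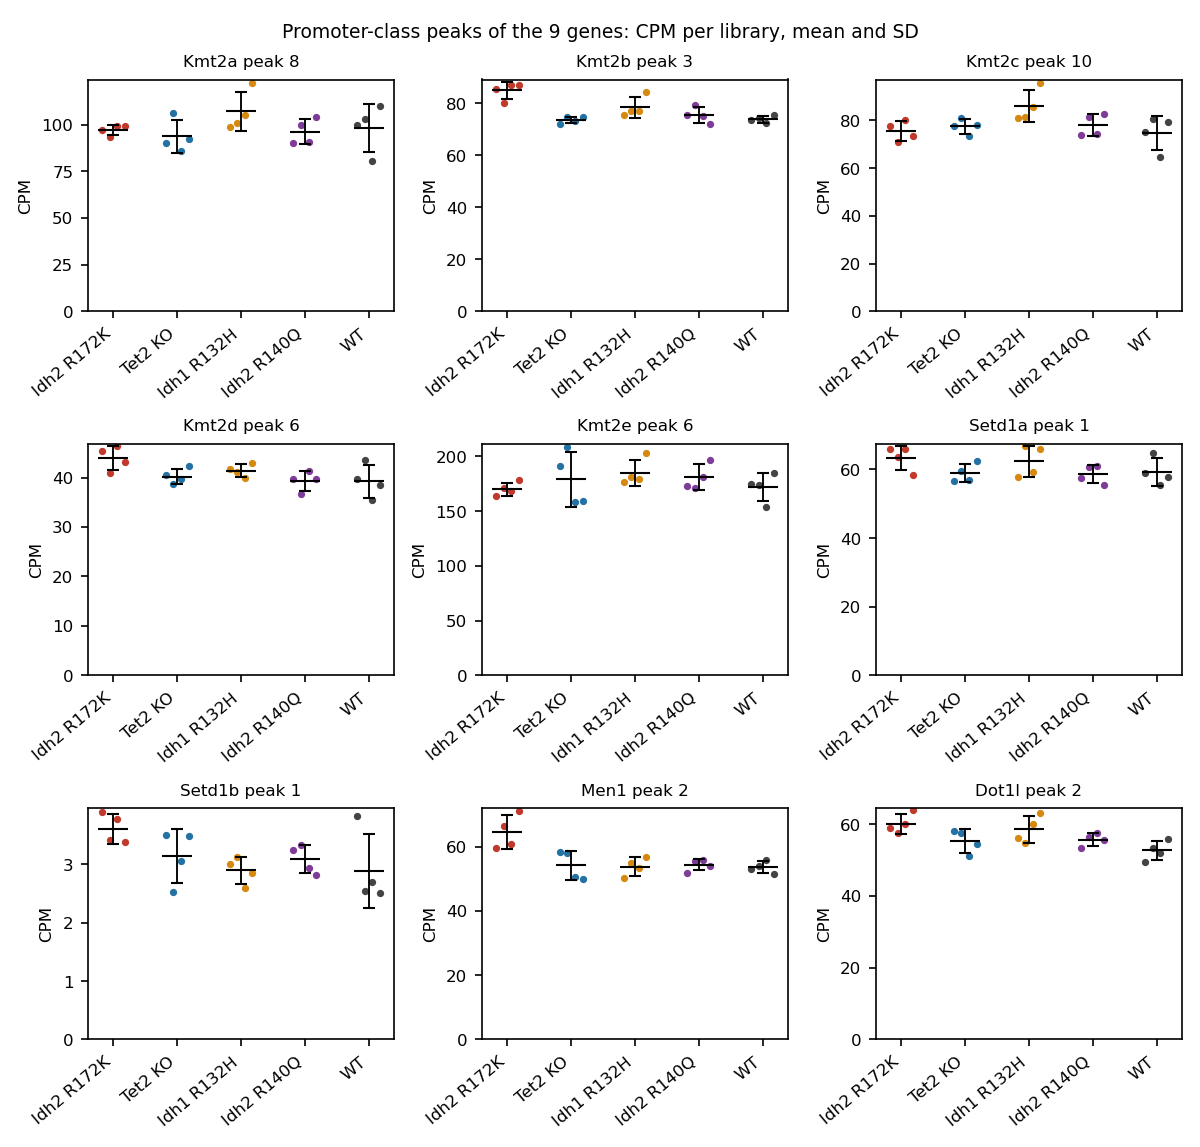
CPM per library in the promoter-class peak of each of the 9 genes, by genotype, with the mean and SD of 4 libraries as bars. In Kmt2b peak 3, Men1 peak 2 and Dot1l peak 2 every Idh2 R172K library lies above every WT library, while the Kmt2a, Kmt2c and Kmt2e points overlap.

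In Idh2 R172K, 13 of the 55 peaks were raised and 4 lowered relative to WT, and 38 were not called. A call means an adjusted p below 0.05, Benjamini-Hochberg adjusted over all 123908 tested peaks, from edgeR's quasi-likelihood test. That is 23.6% raised, where 25.1% of all tested peaks were raised, and 7.27% lowered, where 27.9% of all tested peaks were lowered. The raised peaks belonged to Kmt2b, Kmt2c, Kmt2d, Kmt2e, Setd1b, Men1 and Dot1l, the lowered peaks to Kmt2b, Kmt2e, Setd1b and Dot1l, and Kmt2a and Setd1a had no call. All 4 Idh2 R172K libraries lay above all 4 WT libraries at 12 of the 55 peaks and below them at 6. Over all tested peaks they lay above at 20.4% and below at 23.5%, and 6 of 55 is a smaller share than 23.5%. The median log2 fold change was 0.02 over the 55 peaks and 0.01 over all tested peaks. With cyclic loess scaling the split became 12 raised and 8 lowered, where 26.1% and 25.3% of all tested peaks were, and with library size alone 8 raised and 7 lowered, where 18.8% and 31.1% were. Of the 17 calls, 11 were kept with cyclic loess and 12 with library size.

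The 4 lowered peaks all lay outside the promoter class. Of the 12 promoter-class peaks, 5 were raised (41.7%, against 39.8% of all promoter-class peaks) and 0 lowered (against 15%), by edgeR and also by DESeq2. Of the 43 other peaks, 8 were raised (18.6%, against 23% of all other peaks) and 4 lowered (9.3%, against 29.8%). The median log2 fold change was 0.18 in the 12 promoter-class peaks and 0.14 in all of them. The promoter calls depended on scaling: under cyclic loess the median of all promoter-class peaks moved to 0.03, and all 5 of these calls were lost. In their place Kmt2a, Kmt2c and Kmt2e promoter peaks were called lower and the Setd1b promoter peak higher.

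Summed levels at marker genes of other cells did not overlap between Idh2 R172K and WT for 4 of the 5 lists, nor did those of the LSK list. Single peaks lay without overlap above WT at 20.4% of all tested peaks and below at 23.5%. The share for sums over gene lists was not computed, so non-overlap alone does not set these lists apart. Peaks in the mature neutrophil and macrophage genes (2 of 4 with a peak, Ly6g and Camp without) summed to 5.24 to 7.06 CPM in Idh2 R172K and 8.87 to 11 in WT. The erythroid genes (2 of 3, Hbb-bs without) summed to 0.901 to 1.11 CPM in Idh2 R172K and 2.2 to 3.88 in WT. The B cell genes (2 of 3, Cd79a without) summed to 6.19 to 7.01 CPM in Idh2 R172K and 7.06 to 8.35 in WT, and the T cell genes (2 of 3, Cd3g without) to 8.12 to 11.2 and 9.25 to 10.4 in the same order. Stromal and endothelial genes (4 of 4) summed to 135 to 152 CPM in Idh2 R172K and 112 to 125 in WT. Their part in the calls was not tested, and a change in the mix of cells and a change within cells cannot be told apart in bulk libraries.

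**Figure D2:**
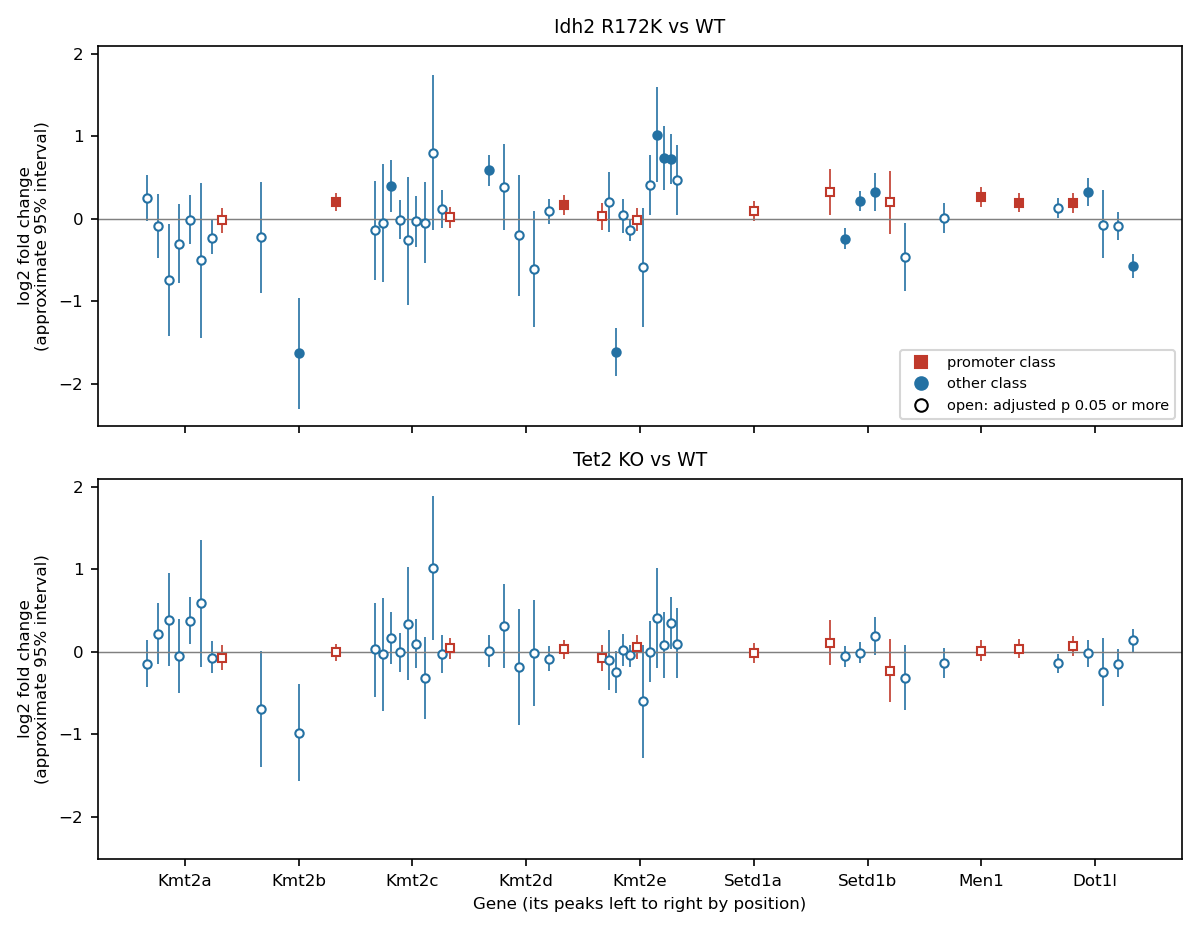
Log2 fold change with its approximate 95% interval for the 55 peaks, by gene and position, for Idh2 R172K vs WT (top) and Tet2 knockout vs WT (bottom). Filled symbols are called: 17 in Idh2 R172K, with Kmt2e peak 3 and Kmt2b peak 2 lowest, and 0 in Tet2 knockout.

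Kmt2a, Kmt2b and menin act together. The Men1 and Kmt2b promoters were raised in Idh2 R172K, and the Kmt2a promoter was not called. Men1 (chr19:6334979-6340894) had the promoter with the smallest p of the 9 genes. Men1 peak 2 (chr19:6334544-6335751) had 59.7, 66.5, 60.8 and 71.1 CPM in Idh2 R172K, against 53.1, 54.1, 55.9 and 51.6 CPM in WT. All Idh2 R172K libraries lay above all WT libraries (log2 fold change 0.26, SE 0.06, adjusted p = 0.000665). The other genotypes averaged 54.2 ± 4.54 CPM in Tet2 knockout, 53.8 ± 2.86 in Idh1 R132H and 54.4 ± 1.82 in Idh2 R140Q, near the WT mean of 53.7 ± 1.79. Under cyclic loess the value was 0.09 (adjusted p = 0.126), and within the libraries low at Xist it was 0.14 (adjusted p = 0.0565).

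Men1 peak 3 (chr19:6339949-6341576), at the far end of Men1, was also raised, at 57.3 ± 2.94 CPM in Idh2 R172K and 50.2 ± 2.35 in WT (log2 fold change 0.19, adjusted p = 0.00516). It holds a boundary of the neighbouring kinase gene Map4k2 (chr19:6340990-6355619) and is annotated as the promoter of another gene than Men1, so it may belong to either gene. Men1 peak 1, 3354 bp outside the gene, had a log2 fold change of 0.01 (95% interval -0.17 to 0.19).

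The Kmt2b promoter was raised as well. Kmt2b peak 3 (chr7:30588126-30589831) had 85.5, 80, 86.9 and 87 CPM in Idh2 R172K, against 73.6, 74.3, 72.2 and 75.3 CPM in WT. Again the groups did not overlap (log2 fold change 0.20, SE 0.06, adjusted p = 0.00206). Under cyclic loess 0.01 was left of it (adjusted p = 0.882). A boundary of the Zbtb32 gene lies in the same peak, and the deposited annotation gives the peak another gene ID than the other Kmt2b peaks. The peak centre also lies in the non-coding RNA gene Gm32082 (chr7:30588779-30590359).

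At the other end of Kmt2b (chr7:30568855-30589056) a weak peak moved the opposite way. Kmt2b peak 2 (chr7:30573037-30573372), annotated to the transcription end, had 0.308, 0.487, 0.37 and 0.338 CPM in Idh2 R172K, against 0.645, 1.72, 1.31 and 0.902 CPM in WT. All Idh2 R172K libraries were below all WT libraries, although WT itself varied widely (log2 fold change -1.63, SE 0.34, adjusted p = 0.00011). Tet2 knockout libraries had 0.514, 0.341, 0.386 and 0.977 CPM and overlapped both groups, with a log2 fold change against WT of -0.98 (SE 0.30, adjusted p = 0.0591), the lowest adjusted p of any member peak in that genotype. Without the highest Tet2 knockout library, replicate 4, the adjusted p was 0.01, and without WT replicate 1 it was 0.0208. Kmt2b peak 1, the nearest peak to it, was not called in Idh2 R172K (-0.22, 95% interval -0.90 to 0.45) or in Tet2 knockout (-0.69, 95% interval -1.39 to 0.01).

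Kmt2a (chr9:44803355-44881352) gave no call at any of its 8 peaks against WT in the edgeR fit over all libraries. The centres of peaks 3 to 8 also lie in the non-coding RNA gene Gm39326 (chr9:44854919-44884837). Kmt2a peak 8 (chr9:44881107-44883231), over the promoter, had 96.9, 93.2, 99 and 99.3 CPM in Idh2 R172K, against 99.6, 103, 80.3 and 110 CPM in WT. The groups overlapped, and the log2 fold change of -0.02 had a 95% interval of -0.17 to 0.13. Under cyclic loess it was -0.23 (adjusted p = 0.000273). The 7 peaks inside the gene had log2 fold changes from -0.74 to 0.25, and 2 of them, peak 3 and peak 7, had an unadjusted p below 0.05 with lower values in Idh2 R172K (-0.74 and -0.23, adjusted p = 0.0695 and 0.0614). Peak 7 was called lower with library size (-0.30, adjusted p = 0.0144), within the libraries high at Xist (-0.43, adjusted p = 0.0396) and without Idh2 R172K replicate 1 or WT replicate 4, and peak 1 was called raised under cyclic loess (0.34, adjusted p = 0.0414).

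Kmt2c and Kmt2d are the enzymes tied to methylation of lysine 4 at enhancers. In Idh2 R172K 1 of 10 Kmt2c peaks and 2 of 6 Kmt2d peaks were raised, and 0 were lowered. Of all tested peaks 25.1% were raised and 27.9% lowered. The strongest change was not at a promoter. Kmt2d peak 1 (chr15:98832616-98833000), in the last of 55 exons, had 15.9, 16.9, 15 and 16.1 CPM in Idh2 R172K, against 12.4, 11, 8.94 and 9.64 CPM in WT. No library of one group reached the other (log2 fold change 0.59, SE 0.10, adjusted p = 2.03e-06). Tet2 knockout averaged 10.7 ± 1.46 CPM, Idh1 R132H 11.7 ± 0.788 and Idh2 R140Q 10.9 ± 1.06, beside 10.5 ± 1.51 in WT. The next peak, the Prkag1 promoter (chr15:98830733-98832147), overlaps the end of Kmt2d and was raised too (log2 fold change 0.23, adjusted p = 0.00127).

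Kmt2d peak 6 (chr15:98871292-98872585), the promoter-class peak, had 45.4, 40.9, 46.3 and 43.1 CPM in Idh2 R172K, against 39.7, 43.5, 35.4 and 38.4 CPM in WT. The ranges overlapped and the rise was small (log2 fold change 0.17, SE 0.06, adjusted p = 0.0237). The call was lost under cyclic loess, library size scaling, within the libraries high at Xist, and without any one of Idh2 R172K replicates 1 and 3 or WT replicates 3 and 4 (adjusted p from 0.059 to 0.714 over these fits). Peaks 2 to 5 of Kmt2d had log2 fold changes from -0.61 to 0.39, with none called.

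The Kmt2c promoter, Kmt2c peak 10 (chr5:25498422-25500180), had 77.7, 70.9, 80.2 and 73.6 CPM in Idh2 R172K, against 75.1, 80.4, 64.7 and 79.2 CPM in WT. The Idh2 R172K libraries lay within the WT range (log2 fold change 0.02, 95% interval -0.11 to 0.14). Under cyclic loess the sign turned (-0.18, adjusted p = 0.0024), and within the libraries low at Xist the peak was called raised (0.16, adjusted p = 0.0293). Kmt2c peak 3 (chr5:25420561-25421109), in an intron, was raised at 2.83 ± 0.0833 CPM in Idh2 R172K and 2.17 ± 0.197 in WT (log2 fold change 0.40, adjusted p = 0.0366). That call was lost in 9 of 18 alternative fits, among them DESeq2 (adjusted p = 0.0604) and the fits without Idh2 R172K replicate 1, 3 or 4 or WT replicate 1 or 2. The other 8 Kmt2c peaks were not called.

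Setd1a and Setd1b place the promoter form of the same mark. Setd1a peak 1 (chr7:127776422-127777993), the only Setd1a peak, had 65.9, 63.5, 65.8 and 58.3 CPM in Idh2 R172K, against 58.9, 64.8, 55.4 and 57.9 CPM in WT. The groups overlapped (log2 fold change 0.10, 95% interval -0.03 to 0.22), and the peak was called raised within the libraries low at Xist (0.20, adjusted p = 0.00817).

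Setd1b gave neighbouring peaks with opposite changes. Setd1b peak 2 (chr5:123149382-123150313), in an exon, had 18.7, 21.1, 21.1 and 18.9 CPM in Idh2 R172K, against 24.4, 25, 22.3 and 22.2 CPM in WT, with no overlap (log2 fold change -0.24, SE 0.07, adjusted p = 0.00224). Setd1b peak 3 (chr5:123150823-123151470), in an intron, had 32.8, 30.8, 30.7 and 33.7 CPM in Idh2 R172K, against 28.8, 25.8, 26.9 and 28.7 CPM in WT (log2 fold change 0.22, SE 0.06, adjusted p = 0.00416). Peak 3 had 0.10 under cyclic loess (adjusted p = 0.129) and 0.18 within the libraries low at Xist (adjusted p = 0.062), and within the libraries high at Xist peak 2 had -0.24 (adjusted p = 0.0573). These peaks are close to each other in Setd1b, and no library of either group crossed over in either peak. Setd1b peak 4, also in an intron, was raised at 6.51 ± 0.764 CPM in Idh2 R172K and 5.23 ± 0.299 in WT (log2 fold change 0.33, adjusted p = 0.0188), and lost its call without Idh2 R172K replicate 4 (adjusted p = 0.0879), with library size (0.25, adjusted p = 0.0839) and within the libraries high or low at Xist (0.42 and 0.26, adjusted p = 0.0688 and 0.157).

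The promoter-class Setd1b peak 1 had 3.89, 3.41, 3.77 and 3.38 CPM in Idh2 R172K, against 3.83, 2.54, 2.69 and 2.5 CPM in WT. WT replicate 1 alone reached the Idh2 R172K values (log2 fold change 0.32, adjusted p = 0.0525), and without it the value was 0.51 (adjusted p = 0.00443). The Rhof-named peak over the Setd1b start had 47.8 ± 3.39 CPM in Idh2 R172K and 42.7 ± 4.51 in WT (log2 fold change 0.16, adjusted p = 0.0447).

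Kmt2e, a family member with a SET domain that has shown little enzyme activity, held the lowered peak with the smallest p and the raised peak with the largest fold change among the 55. Kmt2e peak 3 (chr5:23409878-23410667) had 2.73, 2.82, 4.21 and 3.49 CPM in Idh2 R172K, against 10.3, 11, 8.61 and 11.2 CPM in WT. Every Idh2 R172K library had less than the lowest WT library by a wide margin (log2 fold change -1.61, SE 0.15, adjusted p = 3.24e-10). Tet2 knockout libraries averaged 8.8 ± 0.638 CPM, Idh1 R132H 10.2 ± 1.18 and Idh2 R140Q 9.51 ± 2.47, beside 10.3 ± 1.19 in WT. The peak lies 22764 bp outside Kmt2e (chr5:23433036-23504235), within the non-coding RNA gene 5031425E22Rik (chr5:23382302-23434353), which runs up to and across the Kmt2e start.

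The 4 other peaks in that non-coding gene before Kmt2e, peaks 1, 2, 4 and 5, were not called, with log2 fold changes from -0.13 to 0.20. Peak 5 was called lower under cyclic loess (-0.29, adjusted p = 5.11e-05), with library size (-0.21, adjusted p = 0.0032), in the fit of only these genotypes (-0.14, adjusted p = 0.0486) and within the libraries low at Xist (-0.21, adjusted p = 0.00896). The promoter was not called either. Kmt2e peak 6 (chr5:23432665-23434699) had 164, 171, 168 and 178 CPM in Idh2 R172K, against 175, 174, 154 and 185 CPM in WT. The groups overlapped (log2 fold change -0.01, 95% interval -0.15 to 0.13), although cyclic loess gave -0.27 (adjusted p = 2.45e-07). The deposited annotation gives peak 6 the gene ID of peaks 2 to 5, not that of the peaks in the body of Kmt2e. Peak 1, 46065 bp outside Kmt2e, is counted in the promoter class too, under a further gene ID.

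Past the promoter, 3 of the 6 weak peaks in the body of Kmt2e were raised in Idh2 R172K. Kmt2e peak 11 (chr5:23490735-23491245), in intron 15 of 26, had 3.65, 2.63, 4.1 and 4.11 CPM in Idh2 R172K, against 2.5, 1.55, 2.69 and 2.38 CPM in WT. A single library pair overlapped, Idh2 R172K replicate 2 with WT replicate 3 (log2 fold change 0.72, SE 0.16, adjusted p = 0.000164). Kmt2e peak 10, in exon 7, was raised at 2.19 ± 0.536 CPM in Idh2 R172K and 1.27 ± 0.11 in WT (log2 fold change 0.74, adjusted p = 0.00171). Kmt2e peak 9, in intron 3, was raised at 0.893 ± 0.115 CPM in Idh2 R172K and 0.455 ± 0.169 in WT (log2 fold change 1.02, adjusted p = 0.00368). Peaks 8 and 12, on either side of these 3, had log2 fold changes of 0.41 and 0.47 and missed the threshold (adjusted p = 0.0547 and 0.0599), and peak 7, nearest the promoter, had -0.59 (95% interval -1.31 to 0.13). Under cyclic loess peaks 8 and 12 were called raised (0.54 and 0.62, adjusted p = 0.0141 and 0.0115), as they were without Idh2 R172K replicate 1. Some other alternative fits also called them raised. Within the libraries low at Xist peak 7 was called lower (-1.13, adjusted p = 0.0469).

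Dot1l (chr10:80755101-80795461) had calls in both directions along the gene. Dot1l peak 2 (chr10:80754903-80755492), over the promoter, had 59, 57.5, 60.1 and 63.9 CPM in Idh2 R172K, against 49.5, 53.4, 51.9 and 55.8 CPM in WT. The groups did not overlap (log2 fold change 0.19, SE 0.06, adjusted p = 0.00713). Scaling by library size left 0.12 (adjusted p = 0.052) and cyclic loess 0.03 (adjusted p = 0.67). Dot1l peak 3 (chr10:80757686-80758031), in the first intron, was raised at 13.1 ± 0.414 CPM in Idh2 R172K and 10.5 ± 0.679 in WT (log2 fold change 0.33, adjusted p = 0.00125).

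The far end of Dot1l was lowered. Dot1l peak 6 (chr10:80791468-80793181), which the annotation places in exon 6 of a transcript with 7, had 26.7, 25.1, 26.4 and 26.7 CPM in Idh2 R172K, against 41.7, 37.4, 42.6 and 34.9 CPM in WT. The Idh2 R172K libraries were tightly grouped and all below WT (log2 fold change -0.57, SE 0.07, adjusted p = 2.54e-08). Tet2 knockout libraries stood at 47.2, 42.8, 41.4 and 41.5 CPM, with a log2 fold change against WT of 0.14 (95% interval 0.00 to 0.28, adjusted p = 0.314). Idh1 R132H averaged 37.5 ± 2.37 CPM and Idh2 R140Q 39.1 ± 4.64, beside 39.2 ± 3.62 in WT. The remaining Dot1l peaks, 1, 4 and 5, had log2 fold changes of 0.13, -0.07 and -0.09 and were not called by edgeR over all libraries. DESeq2 called Dot1l peak 1 raised (0.14, adjusted p = 0.0482), as did edgeR with the replicate block (0.13, adjusted p = 0.0441) and without WT replicate 1 (0.18, adjusted p = 0.0249).

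**Figure D3:**
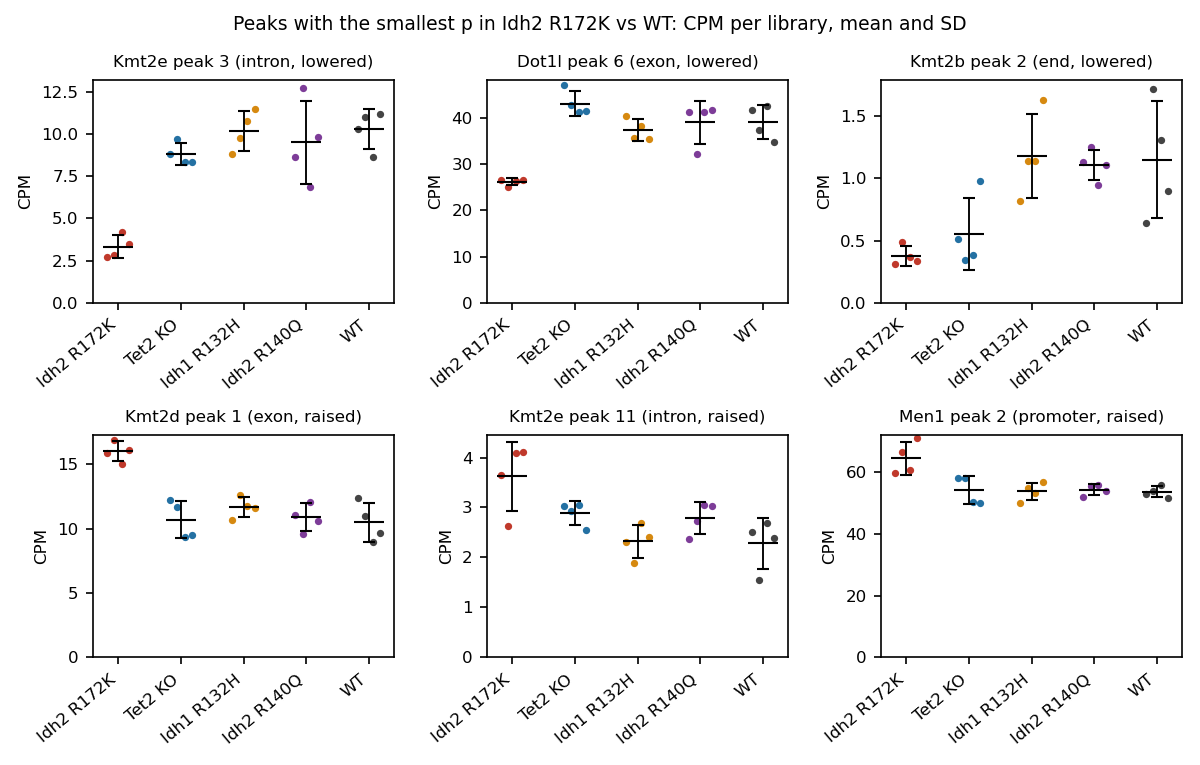
CPM per library in the 3 lowered and 3 raised peaks with the smallest p in Idh2 R172K vs WT, by genotype, with mean and SD of 4 libraries. In Kmt2e peak 3 and Dot1l peak 6 the 4 Idh2 R172K libraries lie below all 16 others, and in Kmt2d peak 1 above them.

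**Figure D4:**
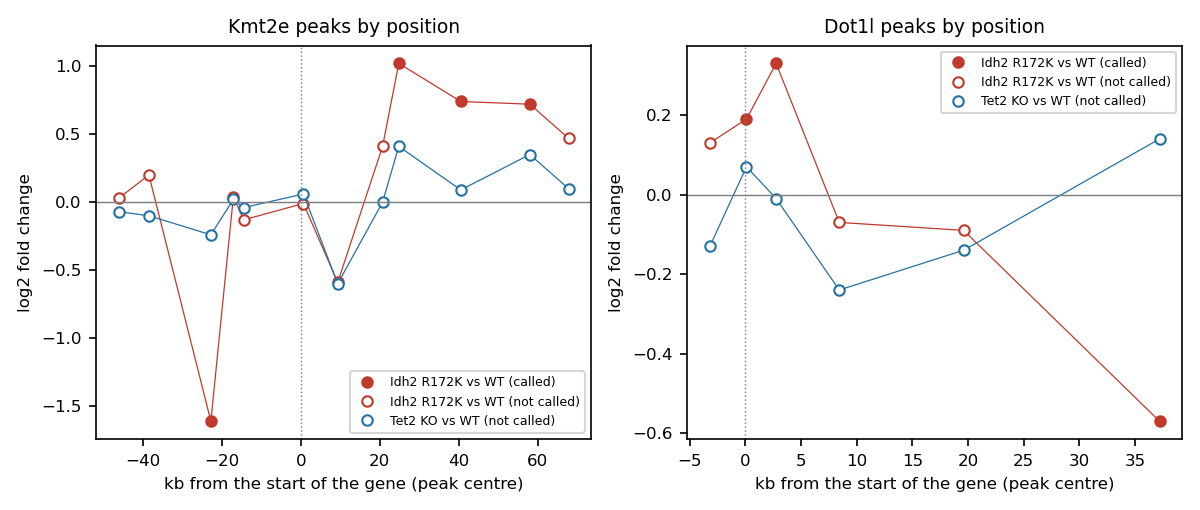
Log2 fold change of the Kmt2e peaks (left) and Dot1l peaks (right) against distance in kb from the start of the gene (dotted line) to the peak centre, for Idh2 R172K vs WT and Tet2 knockout vs WT, with lines joining peaks in order of position. In Idh2 R172K the called Kmt2e peaks are at -22.8 kb (lowered) and at 24.8, 40.5 and 58 kb (raised), and the lowered Dot1l peak is at 37.2 kb.

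Of the 17 calls, 6 held in all 18 alternative fits: Kmt2e peak 3, Dot1l peak 6 and Kmt2b peak 2 among the lowered peaks, and Kmt2d peak 1, Kmt2e peak 11 and Dot1l peak 3 among the raised ones. None of the 6 was a promoter-class peak. Over those fits the highest adjusted p was 1.15e-08 for Kmt2e peak 3, 0.00057 for Dot1l peak 6, 0.0087 for Kmt2b peak 2, 0.000649 for Kmt2d peak 1, 0.0128 for Kmt2e peak 11 and 0.0485 for Dot1l peak 3. Within the libraries low at Xist (2 against 2) the genes had 9 raised and 6 lowered peaks. Of all 124394 peaks tested there, 24042 were raised and 28343 lowered. Within those high at Xist the genes had 7 raised and 4 lowered. Of all 123572 peaks tested there, 19587 were raised and 23388 lowered. The fit over all libraries called 31075 raised and 34598 lowered of 123908, so calls were fewer over all peaks as well. Among the libraries low at Xist, 6 of the 17 calls were lost, at Men1 peak 2, Kmt2c peak 3, Kmt2e peaks 9 and 10 and Setd1b peaks 3 and 4. Among those high at Xist 8 were lost, at Kmt2b peak 3, Kmt2c peak 3, Kmt2d peak 6, Kmt2e peak 9, Setd1b peaks 2 and 4, Men1 peak 3 and Dot1l peak 2. These fits were chosen after the data were seen.

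**Figure D5:**
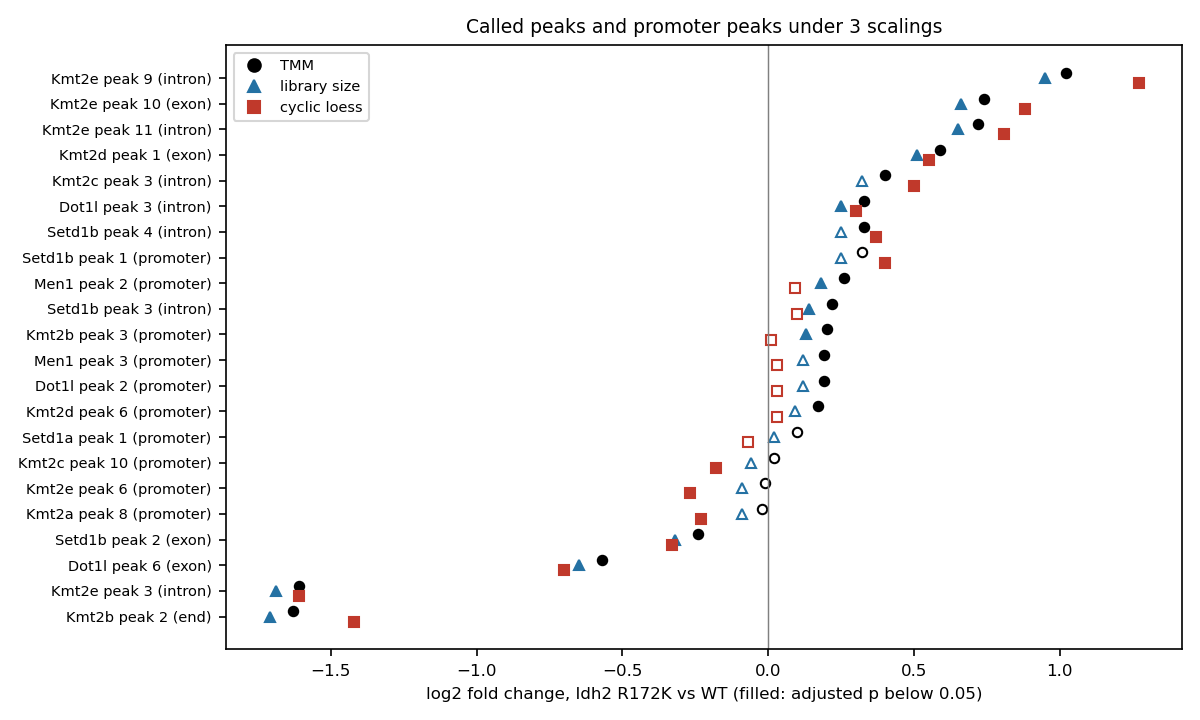
Log2 fold change in Idh2 R172K vs WT under TMM, library size and cyclic loess scaling for the 17 called peaks and the promoter peaks, with filled symbols for an adjusted p below 0.05. The Kmt2b, Kmt2d, Men1 and Dot1l promoter peaks lie between 0.01 and 0.09 under cyclic loess, while Kmt2e peak 3, Kmt2b peak 2, Dot1l peak 6 and Kmt2d peak 1 are called under all 3.

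Tet2 knockout, which lacks an enzyme that 2-hydroxyglutarate inhibits, gave no call among the 55 peaks. By edgeR 0 were raised and 0 lowered, where 0.785% and 2.32% of all tested peaks were, and DESeq2 called 0 as well. The lowest adjusted p was 0.0591, at Kmt2b peak 2, and 6 peaks had an unadjusted p below 0.05. The 9 promoter peaks had log2 fold changes from -0.07 to 0.11, with 95% intervals reaching from -0.22 to 0.39. Some promoters were higher in Tet2 knockout replicates 1 and 2, low at Xist, than in replicates 3 and 4, high at Xist. Kmt2e peak 6 had 191 and 209 CPM in replicates 1 and 2 and 158 and 159 CPM in replicates 3 and 4, and Men1 peak 2 had 58.3 and 58 CPM in replicates 1 and 2 and 50.5 and 50 CPM in replicates 3 and 4. In Idh2 R172K the replicates high at Xist, 2 and 4, had the higher values instead: 171 and 178 CPM at Kmt2e peak 6, with 164 and 168 CPM in replicates 1 and 3, and 66.5 and 71.1 CPM at Men1 peak 2, with 59.7 and 60.8 CPM in replicates 1 and 3. A link to Xist is not shown by these values. Within the libraries low at Xist, Kmt2e peak 6 was called raised in Tet2 knockout (0.28, adjusted p = 0.00134). In that fit 7.57% of all promoter-class peaks were raised and 0.494% lowered, where the fit over all libraries gave 0.816% and 1.07%. Promoter-class peaks held 42.2% and 42.42% of the counts in peaks in Tet2 knockout replicates 1 and 2. In replicates 3 and 4 they held 41.13% and 41.47%.

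Idh1 R132H gave 0 calls among the 55 peaks by edgeR and by DESeq2, where 0.00646% of all tested peaks were raised and 0.021% lowered. At an unadjusted p below 0.05 there were 2 peaks, both promoters. Kmt2c peak 10 had 81.1, 81.4, 85.4 and 95.5 CPM in Idh1 R132H, against 75.1, 80.4, 64.7 and 79.2 CPM in WT. All Idh1 R132H libraries lay just above WT (log2 fold change 0.19, 95% interval 0.07 to 0.32, adjusted p = 0.722). Dot1l peak 2 averaged 58.5 ± 3.84 CPM in Idh1 R132H and 52.7 ± 2.65 in WT, with overlap (0.15, 95% interval 0.03 to 0.27, adjusted p = 0.871).

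Idh2 R140Q, the other change in the same enzyme, likewise gave 0 calls by both tools, where 0.00807% of all tested peaks were raised and 0.00726% lowered, and 0 peaks at an unadjusted p below 0.05. Its lowest adjusted p was 0.908. The 9 promoter peaks had log2 fold changes from -0.03 to 0.08, with 95% intervals reaching from -0.20 to 0.37, the widest at the weak Setd1b peak. Men1 peak 2 had 0.02 (95% interval -0.11 to 0.14), Kmt2b peak 3 0.03 (95% interval -0.08 to 0.14) and Dot1l peak 2 0.08 (95% interval -0.04 to 0.20). For Men1 and Kmt2b those intervals end below the Idh2 R172K values of 0.26 and 0.20, and for Dot1l the interval includes the Idh2 R172K value of 0.19.

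The genotypes were also set against each other, since a call in one and not in another does not show a difference. Between Idh2 R172K and Idh2 R140Q, 12 of the 55 peaks were raised and 5 lowered in Idh2 R172K, where 21.5% and 25.5% of all tested peaks were. Kmt2e peak 3 had a log2 fold change of -1.48 (adjusted p = 3.65e-09), Dot1l peak 6 of -0.58 (adjusted p = 2.76e-08), Kmt2b peak 2 of -1.61 (adjusted p = 0.000184) and Kmt2d peak 1 of 0.54 (adjusted p = 1.04e-05). The Men1 and Kmt2b promoter peaks were higher in Idh2 R172K (0.24 and 0.17, adjusted p = 0.00179 and 0.00877), and the Dot1l promoter peak was not called (0.11, 95% interval -0.01 to 0.23).

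Between Idh2 R172K and Tet2 knockout, 10 peaks were raised and 6 lowered in Idh2 R172K, where 20.1% and 24.1% of all tested peaks were. Dot1l peak 6 gave the smallest p, where the Idh2 R172K mean was 26.2 ± 0.755 CPM and the Tet2 knockout mean 43.2 ± 2.72 CPM (-0.71 on the log2 scale, adjusted p = 1.46e-10). Kmt2e peak 3 had -1.37 (adjusted p = 1.59e-08) and Kmt2d peak 1 0.57 (adjusted p = 3.64e-06). Kmt2b peak 2 was not called between these genotypes (-0.65, 95% interval -1.41 to 0.10). Kmt2a, with no call against WT, had 3 of the 6 lowered peaks here: peak 3 (-1.13, adjusted p = 0.00451), peak 5 (-0.39, adjusted p = 0.0275) and peak 6 (-1.09, adjusted p = 0.0385). Kmt2a peak 1 was raised (0.39, adjusted p = 0.0244), as was Dot1l peak 1 (0.27, adjusted p = 0.000461). Without Idh2 R172K replicate 1 the lowered count was 3. Of the Kmt2a peaks lowered here, peaks 3 and 6 are weak, at 0.308 and 0.209 CPM in Idh2 R172K and 0.674 and 0.45 in Tet2 knockout. Against WT, peaks 3, 5 and 6 had log2 fold changes of 0.39, 0.38 and 0.59 in Tet2 knockout. In Idh2 R172K they had -0.74, -0.01 and -0.50 against WT, and none was called in either.

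Counts summed over all peaks of a gene gave smaller differences than the single peaks with the smallest p. The sums were scaled with TMM factors of their own, not those of the single peaks. Setd1a, with a single peak, had a log2 fold change in Idh2 R172K of 0.01 as a sum and 0.10 as a peak. Sums therefore read lower in Idh2 R172K than peaks do. The sign and size of small sum changes can depend on this scaling, that of Dot1l (-0.08) among them. Of the 9 genes, 3 were raised in Idh2 R172K and 2 lowered, where 23.4% and 25.2% of 17779 genes were. Men1 sums were 128 ± 2.01 CPM in Idh2 R172K and 118 ± 3.5 in WT (log2 fold change 0.12, adjusted p = 0.00919), Kmt2d sums 74.1 ± 1.25 and 67.8 ± 2.23 (0.13, adjusted p = 0.00639) and Kmt2b sums 82 ± 2.58 and 77 ± 0.52 (0.09, adjusted p = 0.0497), in the same order. Kmt2e sums were lowered, at 269 ± 7.05 CPM in Idh2 R172K and 295 ± 12.6 in WT (-0.13, adjusted p = 0.0317), as were Dot1l sums, at 166 ± 0.675 and 176 ± 4.93 (-0.08, adjusted p = 0.0382). Kmt2a, Kmt2c, Setd1a and Setd1b sums were not called. Within the libraries high at Xist all 5 of these calls were lost, and Kmt2a and Kmt2c sums were called lower. The calls of Kmt2d and Men1 held with each single library of both genotypes left out, and those of Kmt2b, Kmt2e and Dot1l did not. The Kmt2b call was kept only without Idh2 R172K replicate 2, and the Dot1l call only without WT replicate 4. The Kmt2e call was lost without Idh2 R172K replicate 1 or 3 or WT replicate 1 or 4, and Kmt2a sums were called lower without WT replicate 3. With library size alone the Dot1l call was lost (adjusted p = 0.0712). With promoter-class peaks left out of the sums, the Men1 call ended (-0.02, adjusted p = 0.832), whereas Kmt2d was raised (0.26, adjusted p = 0.000101) and Kmt2e and Dot1l were lowered (-0.18 and -0.11, adjusted p = 0.00289 and 0.0193). Kmt2b was then lowered in Idh2 R172K (-1.03, adjusted p = 0.000917) and in Tet2 knockout (-0.89, adjusted p = 0.0334). That Kmt2b sum holds only the weak peaks 1 and 2, at 0.589 and 1.15 CPM in WT, so it is not independent of the peak 2 values above. Nor are the Kmt2d, Kmt2e and Dot1l sums independent of Kmt2d peak 1, Kmt2e peak 3 and Dot1l peak 6, which they hold. The Kmt2e sum rests mainly on peaks outside the gene, such as peaks 5 and 3, at 46.8 and 10.3 CPM in WT. Kmt2e peaks 9, 10 and 11, raised in the gene body, had only 0.455, 1.27 and 2.28 CPM in WT. Of 15853 genes in this fit, 4423 were raised and 4433 lowered in Idh2 R172K, and 192 and 312 in Tet2 knockout. With all peaks included edgeR called 0 of the 9 gene sums in the other 3 genotypes. Among all genes 0.731% were raised and 0.776% lowered in Tet2 knockout, 0% and 0.0281% in Idh1 R132H, and 0.00562% and 0% in Idh2 R140Q.

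The partners of these enzymes, 20 genes with 181 peaks, held calls in both directions. Of 180 tested partner peaks, 49 were raised and 44 lowered in Idh2 R172K, which is 27.2% and 24.4%, beside 25.1% and 27.9% of all tested peaks. The median log2 fold change was 0.08. The shared core (Wdr5, Rbbp5, Ash2l, Dpy30) had 4 raised and 3 lowered of 19, and the Setd1 subunits (Cxxc1, Wdr82, Hcfc1) 4 raised and 0 lowered of 12. The Kmt2c and Kmt2d subunits (Kdm6a, Ncoa6, Paxip1, Pagr1a) had 5 raised and 2 lowered of 18, and the Kmt2a and Kmt2b cofactors (Psip1, Hcfc2) 4 raised and 6 lowered of 17. The Dot1l complex genes (Mllt10, Mllt6, Mllt1, Mllt3) had 17 raised and 14 lowered of 60, and the elongation factors Aff1, Aff4 and Ell, which are partners in Kmt2a fusions, 15 raised and 19 lowered of 54.

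The 2 raised and 2 lowered partner peaks with the smallest p lay at genes of the Dot1l complex and of the elongation factors. The intronic Mllt1 peak (chr17:56929228-56930316) held 18.3 to 20.3 CPM in Idh2 R172K and 9.56 to 11.8 in WT (log2 fold change 0.82, adjusted p = 2.56e-10), and the intronic Ell peak (chr8:70558058-70558795) 21.5 to 24.8 and 13.2 to 14.1 (0.71, adjusted p = 3.34e-10). The intronic Aff1 peak (chr5:103726562-103727213) held 0.539 to 1.07 CPM in Idh2 R172K and 2.58 to 3.68 in WT (-1.90, adjusted p = 1.64e-10). A peak 86804 bp outside Mllt3 (chr4:87682697-87683544) held 1.46 to 2.37 CPM in Idh2 R172K and 4.8 to 6.41 in WT (-1.54, adjusted p = 3.75e-10). In Tet2 knockout, Idh1 R132H and Idh2 R140Q edgeR called 0 partner peaks (lowest adjusted p = 0.0541, 0.47 and 0.851), with 22, 13 and 8 at an unadjusted p below 0.05. Of all tested peaks 0.785% were raised and 2.32% lowered in Tet2 knockout, and the shares in the Idh genotypes are those given above.

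The genes whose summed signal was most like that of Kmt2a over the 20 libraries were Maz, Hspd1 and Dtwd1 (Pearson r 0.863, 0.861 and 0.845 on log2 CPM). For Dot1l they were Irs2, Mgat5 and Tcof1 (0.909, 0.89 and 0.882). Over 11463 genes compared, the 99th percentile of r was 0.712 for Kmt2a and 0.809 for Dot1l. The 20 points share their genotypes and depths, so these values are a description.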

How the data were processed

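The authors deposited raw counts per peak for 20 ATAC-seq libraries, with a peak annotation, on mm10. The submitters' processing notes name BWA, Trim Galore, Picard, SAMtools, MACS2 and featureCounts. Versions, settings and the unit counted, read or fragment, are not given there. Columns whose names join Idh1 with 140Q were taken as Idh2 R140Q. Gene spans and promoter sequences came from RefSeq (GRCm38.p6).

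The test on these counts was edgeR's (version 4.0.16, under R 4.3.3, with TMM, filterByExpr, robust quasi-likelihood, one mean per genotype over the 20 libraries), Benjamini-Hochberg adjusted over 123908 peaks. The filter removed 1435 peaks. The fit was tested on simulated data. Approximate 95% intervals are the estimate ± 1.96 SE. Alternatives were DESeq2 1.42.0, cyclic loess (limma 3.58.1), library size, other filters, a replicate block, an Xist term, 2-genotype fits, peaks within 10 kb of a gene, leaving out single libraries, and, added after seeing the data, fits within each Xist set. Named with values per library were each gene's promoter peak and, per comparison with WT, the called peaks with the 3 smallest p in each direction. Setd1b peaks 2 and 3 were added to these after their values were seen.

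Libraries are pools of different mice, so p-values measure the spread between pools. Same-numbered libraries deviated together over peaks for Idh1 R132H with WT (correlations 0.102 to 0.232) and Idh2 R140Q with WT (0.115 to 0.275), and those pairs were also fitted with the block, which called 0 of the 55 peaks. The genes and lists were chosen with earlier results of these data known. One further gene of the LSK marker list is not reported here.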

Additional observations from a re-analysis of the deposited data

Results flagged for a closer look

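In 22 peaks and 5 genotypes, 110 groups of 4 libraries were searched for a library far from the other 3, and 4 were found. That is a smaller share than the about 1 in 20 groups that chance gives, so the 4 are listed as a description. In the Kmt2e promoter, Kmt2e peak 6, Idh1 R132H replicate 4 had 203 CPM, above 177 to 181 CPM in the other Idh1 R132H libraries. In the exonic Kmt2e peak 10, Idh2 R140Q replicate 4 had 1.06 CPM, below 1.52 to 1.55 CPM. In the narrow Setd1b peak 1, WT replicate 1 had 3.83 CPM, above 2.5 to 2.69 CPM, and the Idh2 R172K call for this peak changed without it. In Dot1l peak 6, Idh2 R140Q replicate 2 had 32.2 CPM, below 41.3 to 41.7 CPM in its group and above the highest Idh2 R172K library, at 26.7 CPM.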

How the results depend on the processing

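For Idh2 R172K against WT the 13 raised peaks became 8 with library size scaling, 7 within the libraries high at Xist and 11 to 15 with single libraries left out. The 4 lowered became 8 with cyclic loess, 7 with library size and 4 to 5 with single libraries left out. Kmt2c peak 10 turned to -0.18 with cyclic loess, from 0.02. For Tet2 knockout against WT, 1 peak was raised within the libraries low at Xist (Kmt2e peak 6), where 7.57% of all promoter-class peaks were raised. With an Xist term 1 peak was lowered, and with single libraries left out 0 to 1 (Kmt2b peak 2). For Idh2 R172K against Idh2 R140Q the 12 raised became 7 with library size, 4 within the libraries high at Xist and 8 to 10 with single libraries left out, and the 5 lowered became 10 with cyclic loess, 3 within the libraries high at Xist and 5 to 6. For Idh2 R172K against Tet2 knockout the 10 raised became 7 to 12 and the 6 lowered 3 to 6 with single libraries left out. The 5 gene sums called in Idh2 R172K were all lost within the libraries high at Xist, where 2 others were called, and became 2 to 4 with single libraries left out, being 2 without Idh2 R172K replicate 1 or 3 or WT replicate 1, and 1 gene sum was called in Tet2 knockout with promoter-class peaks left out. The causes were not tested. With the replicate block, Idh2 R172K had 16 raised and 4 lowered peaks and 6 gene sums, and Tet2 knockout 1 lowered peak, Kmt2b peak 2. Whether replicate numbers pair these libraries was not settled. Correlations of Idh2 R172K with WT were 0.105, 0.1, -0.0479 and 0.122. Of these, only that of replicate 3 lay clearly below the lowest value for Idh1 R132H with WT, 0.102. Correlations of Tet2 knockout with WT were 0.0911, 0.0754, 0.0503 and 0.0318. With peaks within 10 kb of a gene only, the Idh2 R172K counts were 13 and 3. DESeq2 called 13 and 4, sharing 16 of the 17 peaks. The log2 fold change had an SE of 0.30 at Kmt2e peak 9, near 1 CPM, and of 0.07 at Kmt2e peak 6, at 170 CPM in Idh2 R172K.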
